A study of Homo sapiens with 6 samples.

Results

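The genes described here are 10 members of the hypoxia-inducible factor (HIF) pathway, read in cardiomyocytes kept in one of 2 media. They were chosen by symbol from the 38557 genes listed in each of 6 count files. The rule uses no measured value, but it was set with earlier results of these data known. All 10 symbols were present: the oxygen-regulated subunits HIF1A, EPAS1 and HIF3A, the prolyl hydroxylases EGLN1 and EGLN3, and the non-glycolytic hypoxia targets VEGFA, CA9, ADM, ANKRD37 and NDUFA4L2. The cells had been differentiated from the human line WTC11, an established induced pluripotent stem cell line labelled wild type, so all libraries share 1 line. One group of 3 cultures had been kept in RPMI plus B27, where B27 is a serum-free supplement, and the other group of 3 in DMEM plus fatty acids. The labels call the cultures biological replicates and number them 1 to 3 in both media. Messenger RNA libraries were made with a stranded kit. Oxygen tension, the glucose content of the media, the time in each medium and the age of the cultures are not given in the sources used here. The comparison asks which of these transcripts differed between the media.

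HIF is a transcription factor made of an oxygen-regulated alpha subunit and the constant partner ARNT. In oxygen, the EGLN enzymes hydroxylate prolines of the alpha subunit, the ubiquitin ligase subunit VHL then binds it, and it is degraded. When oxygen is short the alpha subunit persists and switches on genes for glycolysis, blood vessel growth, acid balance and mitochondrial remodelling, and EGLN1 and EGLN3 are themselves among its targets. In the heart this pathway is known for the embryonic, glycolytic stage and for the response to ischaemia. The control acts mainly on protein stability, which RNA counts do not measure.

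Each library held 23232324 to 31035389 gene counts. Values are CPM, counts scaled to the size of the library after TMM (trimmed mean of M values) adjustment, unless another scale is named. All 12 cardiomyocyte markers, TNNT2 and MYH6 among them, were detected in every library. Their summed level was 34515 to 41089 CPM in RPMI plus B27 and 27501 to 38298 CPM in DMEM plus fatty acids. Of the 12, 8 had lower and 4 had higher fitted levels in DMEM plus fatty acids. None was called without the replicate block described below, and 2 were called with it, MYH7 and ACTN2, both lower. Fibroblast and stromal markers summed to 4347 to 8474 CPM in RPMI plus B27 and to 736 to 1947 CPM in DMEM plus fatty acids. All 12 of them had lower fitted levels in DMEM plus fatty acids (6 called, and 9 with the block). Over all tested genes, 1.36% were called without the block and 4.78% with it. Smooth muscle markers summed to 1945 to 2350 CPM and 540 to 1468 CPM in the same order, with 7 of 7 lower (1 called, and 2 with the block). Markers on the epicardial list summed to 1972 to 2394 CPM and 882 to 1097 CPM, with 5 of 5 tested lower (1 called, and 4 with the block). Nearly all of that sum was the keratins KRT8, KRT18 and KRT19, with means of 1301, 689 and 179 CPM in RPMI plus B27. ALDH1A2 was at 0.942 CPM or less and MSLN at 3 counts or fewer in every library, so the sum is mostly a keratin level. Of 9 endothelial markers, PECAM1, CDH5, VWF and ERG stood at 0.414 CPM or less in every library and were not tested. In RPMI plus B27 replicates 1 to 3, CDH5 had 11, 8 and 1 counts and ERG 8, 2 and 1. Both had 0 counts in every library of DMEM plus fatty acids, while PECAM1 overlapped between the media. Of the 5 tested, EMCN had 7.80, 1.32 and 1.23 CPM in RPMI plus B27 and 0.301, 0.234 and 0.0296 CPM in DMEM plus fatty acids and fell with the block (log2 fold change -3.95 ± 0.56, edgeR adjusted p 0.0237). TEK (-2.13) and TIE1 (-0.97) passed in neither fit, and the other two, KDR and FLT1, are described with VEGFA. In bulk RNA, fewer cells of a type and less RNA per cell cannot be told apart.

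RPMI plus B27 replicate 1 stood apart for these genes. It had the highest CPM of the 6 libraries for 7 of the 9 members that passed the filter on low counts, where 27.7% of all tested genes were highest there. This was not particular to the members. That library was also highest for 26 of 33 other non-glycolytic targets, 18 of 20 glycolytic targets and 12 of 12 fibroblast and stromal markers. Of the 16 other regulators tested, 4 were highest there. It also had the largest sum of fibroblast and stromal markers, 8474 CPM. The part of those cells in the members' values was not tested.

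Of the 10 members, 9 passed the filter and were tested, while ANKRD37 had too few counts. In the edgeR quasi-likelihood test over all 6 libraries, 0 of the 9 had a Benjamini-Hochberg adjusted p under 0.05, where 1.36% of all 16107 tested genes did (1.07% lower and 0.292% higher in DMEM plus fatty acids). At an unadjusted p under 0.05 there were 4 of the 9 (EPAS1, EGLN1, EGLN3 and CA9), beside 17.7% of all tested genes. The DESeq2 Wald test called 2, EGLN1 and EGLN3, beside 7.53% of all genes. Libraries with the same replicate number deviated together, and when that number entered the edgeR fit as a block, the same 2 genes passed, both lower in DMEM plus fatty acids. With the block 4.78% of all tested genes passed, or 3.42% downward and 1.36% upward. Without overlap between the media stood 3 of the 9, EPAS1, EGLN1 and EGLN3, all lower, beside 25.6% of all tested genes in either direction and 12.8% downward. The median log2 fold change of the 9 tested members was -0.60, beside 0.01 for all tested genes, and it was -0.13 without RPMI plus B27 replicate 1.

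**Figure D1:**
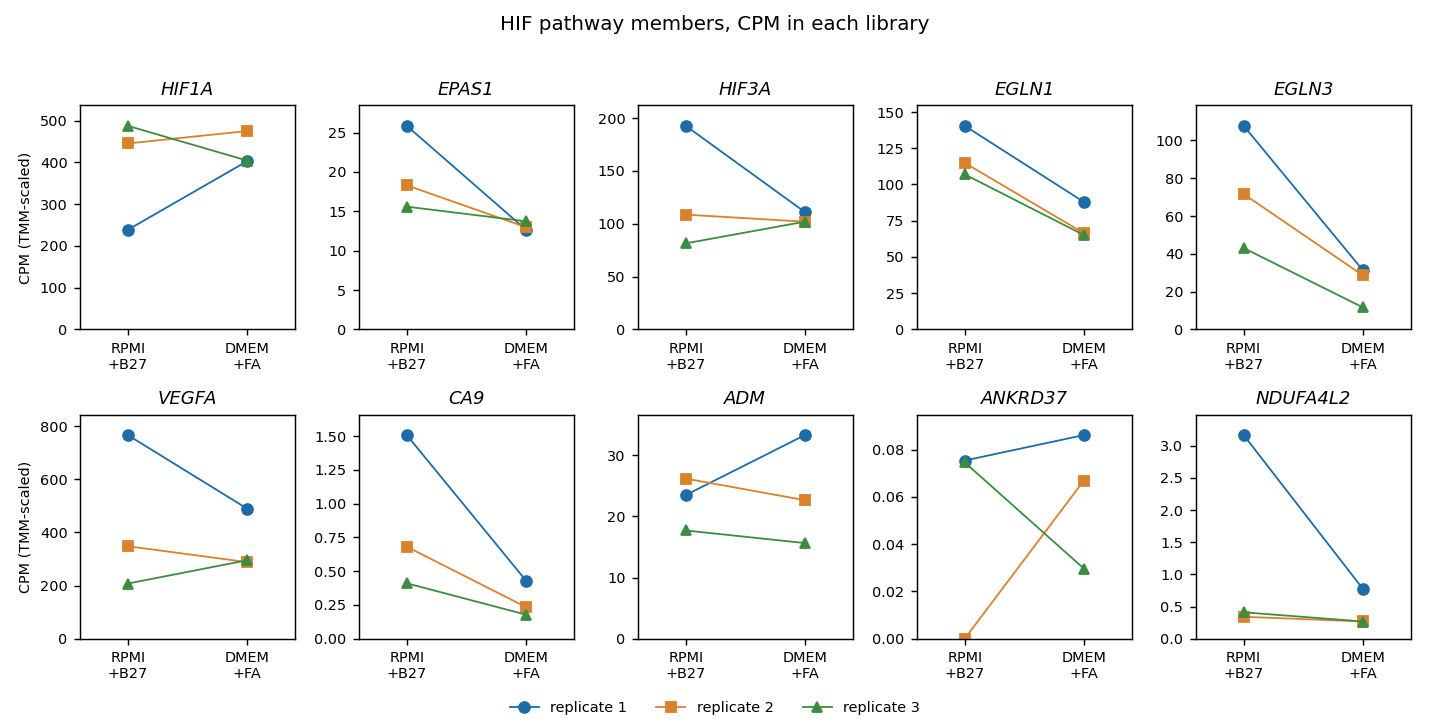
CPM of the 10 members in each of the 6 libraries (vertical axis, TMM-scaled, each panel with its own scale from 0), with lines joining libraries of the same replicate number across the 2 media. EGLN1 and EGLN3 drop along all 3 lines, from 107 to 140 CPM to 65.1 to 87.9 CPM for EGLN1, while HIF1A, VEGFA and ADM do not move in 1 direction.

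Gene positions below are those of GENCODE 29 on GRCh38. Among the alpha subunits, HIF1A (chr14:61695513-61748259, plus strand) encodes the subunit with the broadest expression. Its levels were 239, 445 and 488 CPM in RPMI plus B27 replicates 1 to 3 and 403, 475 and 405 CPM in DMEM plus fatty acids. The low value was that of RPMI plus B27 replicate 1, and the media overlapped. The log2 fold change, here and below positive where DMEM plus fatty acids was higher, was 0.13 ± 0.26 (SE, edgeR adjusted p 0.830), and it was -0.13 without that library.

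EPAS1 (chr2:46293667-46386703, plus strand) encodes HIF-2 alpha, a related subunit with its own set of targets and a known role in blood vessel cells. It stood at 25.8, 18.3 and 15.6 CPM in RPMI plus B27 and at 12.66, 12.98 and 13.72 CPM in DMEM plus fatty acids. Every RPMI plus B27 library lay above every DMEM plus fatty acids library, with the largest gap to replicate 1. The log2 fold change of -0.60 ± 0.21 did not pass (edgeR adjusted p 0.201, and 0.152 with the replicate block), and it was -0.37 without RPMI plus B27 replicate 1.

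HIF3A (chr19:46297046-46343433, plus strand), whose splice forms include a dominant negative of the pathway, had 193, 109 and 81.4 CPM in RPMI plus B27 and 111, 102 and 102 CPM in DMEM plus fatty acids. The RPMI plus B27 libraries lay on both sides of the others. Its log2 fold change was -0.28 ± 0.29 (edgeR adjusted p 0.658) and turned to 0.14 without RPMI plus B27 replicate 1. The counts do not separate its splice forms.

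Within a library, EPAS1 made up 9.77%, 3.94% and 3.10% of the HIF1A plus EPAS1 counts in RPMI plus B27 replicates 1 to 3. In DMEM plus fatty acids the share was 3.05%, 2.66% and 3.28%. The means, 5.61% ± 3.64 and 2.99% ± 0.315 (SD, n = 3 each), differed by -2.61 percentage points (exact two-sided permutation p = 0.2, where 3 against 3 libraries cannot go below 0.1). Without RPMI plus B27 replicate 1 the difference was -0.53 points.

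The prolyl hydroxylases EGLN1 and EGLN3 were lower in DMEM plus fatty acids in every pair and passed with the block. EGLN1 (chr1:231363751-231425044, minus strand) encodes PHD2, the main oxygen sensor that marks HIF alpha for degradation. It was at 140, 115 and 107 CPM in RPMI plus B27 and at 87.9, 66.4 and 65.1 CPM in DMEM plus fatty acids. All 3 libraries of DMEM plus fatty acids lay below all 3 of RPMI plus B27. The drop was nearly the same in each pair, with log2 ratios of -0.68, -0.79 and -0.72 for replicates 1 to 3. The edgeR log2 fold change was -0.72 ± 0.17 (adjusted p 0.0879), or 1.65-fold lower, and with the replicate block it was -0.73 ± 0.10 (adjusted p 0.0215).

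EGLN3 (chr14:33924231-34462774, minus strand) encodes PHD3, a hydroxylase known to be strongly induced by hypoxia. It was at 108, 71.6 and 43.1 CPM in RPMI plus B27 and at 31.3, 28.6 and 11.6 CPM in DMEM plus fatty acids. The media did not overlap, and in both of them replicate 1 was highest and replicate 3 lowest. Within pairs the log2 ratios were -1.78, -1.32 and -1.89. The edgeR log2 fold change was -1.64 ± 0.44 (adjusted p 0.124), or 3.11-fold lower, and with the replicate block it was -1.66 ± 0.14 (adjusted p 0.00833).

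Both calls depend on the block in the edgeR fits with the same gene filter. Over the 17 other fits, the adjusted p of EGLN1 ran from 0.000746 to 0.261 with 6 calls, and that of EGLN3 from 2.51e-05 to 0.259 with 8 calls. Without RPMI plus B27 replicate 1 and without the block, the log2 fold changes were -0.60 for EGLN1 (adjusted p 0.170) and -1.27 for EGLN3 (adjusted p 0.259). EGLN1 lost its call with the block when both replicate 2 libraries were left out (adjusted p 0.114, log2 fold change -0.70). With both replicate 1 libraries left out, the blocked log2 fold changes were -0.76 for EGLN1 and -1.60 for EGLN3, and both passed.

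**Figure D2:**
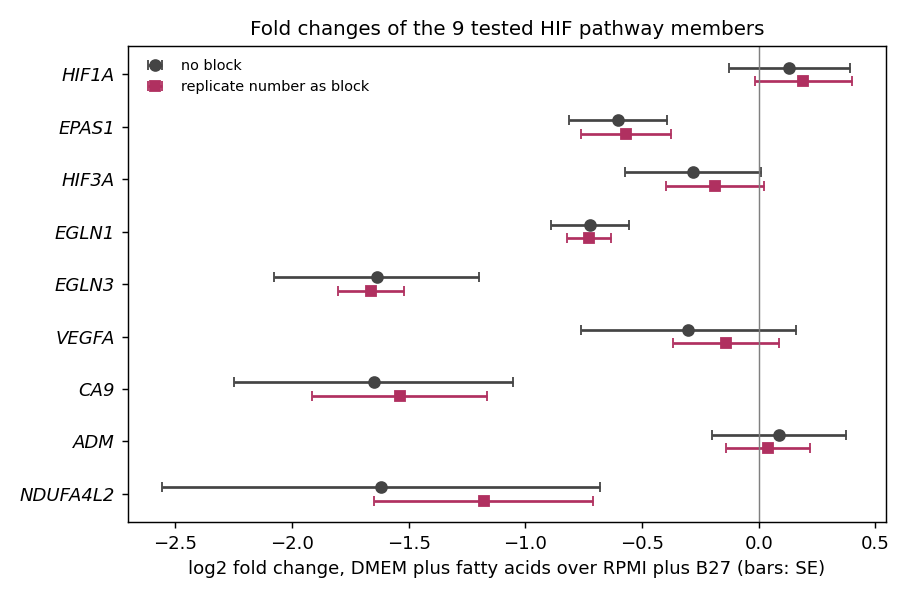
Log2 fold changes (horizontal axis, positive where DMEM plus fatty acids was higher) of the 9 tested members, without (circles) and with (squares) the block of replicate number, where bars are standard errors. The standard error of EGLN3 is 0.44 without the block and 0.14 with it, while that of HIF1A is 0.26 and 0.21.

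The share of EGLN3 among the hydroxylase counts had a lower mean in DMEM plus fatty acids. It held 43.4%, 38.4% and 28.7% of the EGLN1, EGLN2 and EGLN3 counts in RPMI plus B27 and 26.3%, 30.1% and 15.1% in DMEM plus fatty acids. The share was lower in DMEM plus fatty acids in 3 of 3 pairs, by 17.1, 8.29 and 13.6 percentage points, although the ranges of the media overlapped. The means were 36.8% ± 7.48 and 23.8% ± 7.77 (SD, n = 3 each, exact two-sided permutation p = 0.2, exact sign-flip p = 0.25, the smallest that 3 pairs allow). EGLN2, the PHD1 gene, contributed 1 to 6 counts per library. Of its exonic bases, 66.6% are shared on the same strand with the genes RAB4B-EGLN2 and AC008537.1 in GENCODE 29. RAB4B, 75.2% of whose exonic bases are shared with MIA-RAB4B and RAB4B-EGLN2, had 0 counts in every library. The count of EGLN2 was not read as a level.

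**Figure D3:**
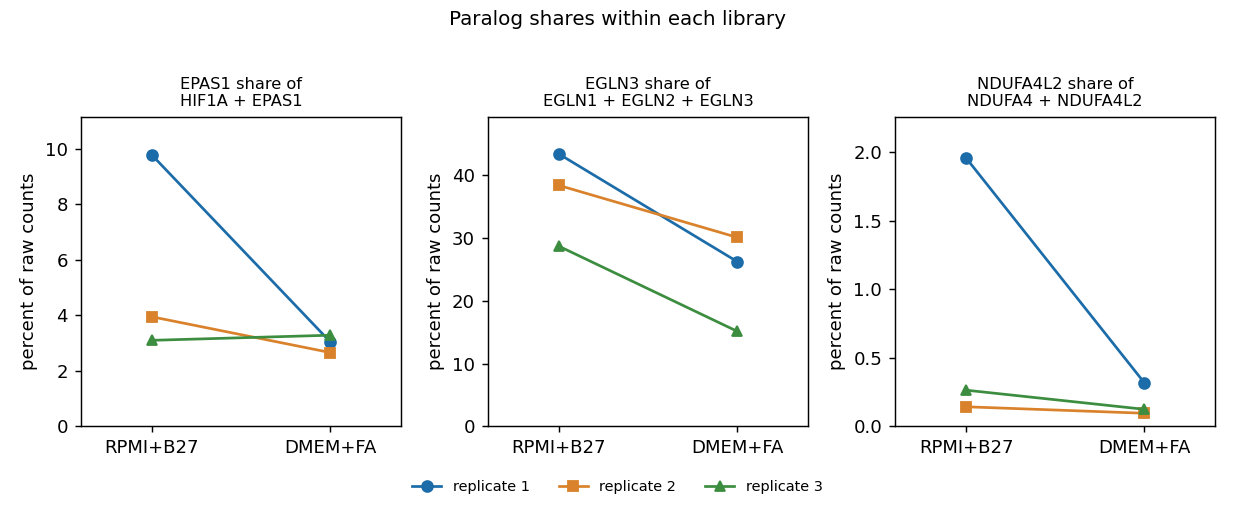
Share of raw counts within each library (vertical axis, percent) that fell to EPAS1, EGLN3 or NDUFA4L2 among the named relatives, with lines joining libraries of the same replicate number. The EGLN3 share is lower along all 3 lines, and the EPAS1 and NDUFA4L2 shares of RPMI plus B27 replicate 1, 9.77% and 1.96%, lie far above the rest.

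The starts of both hydroxylase genes are shown because HIF binds a short core, and the genes differ in whether its letters lie next to the start. The core letters searched were ACGTG and GCGTG on both strands, in the 250 bases before each RefSeq start (GRCh38.p14). GENCODE 29 places other starts further upstream, and it annotates all 250 bases of this window for EGLN1 as UTR, so only the 25 bases around the core are printed (chr1:231422288-231422312, minus strand). For EGLN3 the 243 bases outside any UTR are printed (chr14:33951082-33951324, minus strand). Sequences run 5′ to 3′ on the gene's strand, with core letters in capitals.
EGLN1: gggccgtggtgtACGTGcagagcgc
EGLN3: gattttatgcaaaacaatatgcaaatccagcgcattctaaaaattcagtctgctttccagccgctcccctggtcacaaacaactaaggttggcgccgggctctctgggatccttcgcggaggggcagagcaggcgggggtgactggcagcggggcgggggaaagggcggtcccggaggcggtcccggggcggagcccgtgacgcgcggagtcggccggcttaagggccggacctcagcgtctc
EGLN1 has 1 ACGTG, which begins 13 bases before the start, and EGLN3 has neither core in its 250 bases. Of the 35116 promoters in the table, 18.5% hold ACGTG, 32.2% hold GCGTG and 43.2% hold at least 1 of them. The RefSeq table matched 8 of the 10 members with 11 promoters, of which 7 held at least 1 core. ACGTG was in 3, those of EGLN1, CA9 and ANKRD37, and GCGTG alone in 4, those of HIF1A, EPAS1, HIF3A and ADM. A match is a description of letters and not of binding.

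Among the targets, VEGFA (chr6:43770184-43786487, plus strand), which encodes the secreted growth factor that drives vessel sprouting, had the highest mean CPM per kilobase of exon of the 10 members in RPMI plus B27. That order came from replicate 1, since in replicates 2 and 3 HIF1A was higher, at 105 and 115 CPM per kilobase against 92.3 and 55.0 for VEGFA. The levels of VEGFA were 766, 348 and 207 CPM in RPMI plus B27 and 490, 288 and 295 CPM in DMEM plus fatty acids. Replicate 1 was highest in both media, and the media overlapped. The log2 fold change was -0.30 ± 0.46 (edgeR adjusted p 0.777) and 0.36 without RPMI plus B27 replicate 1. Within pairs the log2 ratios were -0.65, -0.27 and 0.51, so the 3 pairs did not share a direction.

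ADM (chr11:10304680-10307397, plus strand) encodes adrenomedullin, a vasodilator peptide. It had 23.5, 26.2 and 17.7 CPM in RPMI plus B27 and 33.3, 22.7 and 15.7 CPM in DMEM plus fatty acids. The 2 sets of values interleaved, with a log2 fold change of 0.09 ± 0.29 (edgeR adjusted p 0.901).

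CA9 (chr9:35673856-35681159, plus strand) encodes a cell surface carbonic anhydrase, an enzyme that helps cells export acid and a standard marker of hypoxia in tumours. Only 40, 16 and 11 reads were counted in RPMI plus B27 and 10, 7 and 6 in DMEM plus fatty acids, which is 1.51, 0.681 and 0.410 against 0.431, 0.234 and 0.178 CPM. The level was lower in DMEM plus fatty acids in 3 of 3 pairs, and the highest library of DMEM plus fatty acids lay just above the lowest of RPMI plus B27. The log2 fold change of -1.65 ± 0.60 did not pass (edgeR adjusted p 0.215, and 0.0770 with the replicate block), and it was -0.98 without RPMI plus B27 replicate 1. Of its exonic bases, 39.7% face exons of ARHGEF39 on the other strand, and the strand setting of the counting is not given in the sources used here.

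NDUFA4L2 (chr12:57234903-57240715, minus strand) encodes a mitochondrial protein related to the respiratory chain subunit NDUFA4 and known to lower oxygen use in hypoxia. It had 84, 8 and 11 counts in RPMI plus B27 and 18, 8 and 9 in DMEM plus fatty acids. The 84 counts of RPMI plus B27 replicate 1 (3.16 CPM) stood alone, since the other 5 libraries held 0.267 to 0.775 CPM. The log2 fold change was -1.62 ± 0.94 (edgeR adjusted p 0.413) and became 0.16 without that library. NDUFA4 itself had 158, 239 and 155 CPM in RPMI plus B27 and 243, 282 and 215 CPM in DMEM plus fatty acids, with a log2 fold change of 0.42 ± 0.20 (edgeR adjusted p 0.328). NDUFA4L2 made up 1.96%, 0.142% and 0.263% of the counts of the pair in RPMI plus B27 and 0.318%, 0.0948% and 0.124% in DMEM plus fatty acids (exact two-sided permutation p = 0.5). The mean shares differed by -0.61 percentage points, and by -0.0237 without RPMI plus B27 replicate 1.

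ANKRD37 (chr4:185396021-185400628, plus strand), a small ankyrin repeat gene that is a known direct HIF target, had 4 counts over the 3 libraries of RPMI plus B27 and 5 over those of DMEM plus fatty acids. The library with a count of 0 could have held up to 0.125 CPM, reading 0 as at most 3 counts, and this limit covers counting error only. No difference was detectable at this depth. Of its exonic bases, 37.6% face exons of UFSP2 on the other strand, and its RefSeq span (chr4:185396841-185400723) also overlaps that of LRP2BP (chr4:185363872-185397287). The part of such overlaps in its low count was not tested.

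The sites before the starts of CA9, ANKRD37 and ADM are shown as the target genes with core letters. CA9 and ADM were called in neither edgeR fit, and ANKRD37 was not tested. They are printed as above, 30 bases each on the plus strand, from chr9:35673898-35673927, chr4:185396676-185396705 and chr11:10304960-10304989, and GENCODE annotates all 3 as UTR of a longer transcript.
CA9: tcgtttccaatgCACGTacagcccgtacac
ANKRD37: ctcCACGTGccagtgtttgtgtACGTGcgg
ADM: gagcaggagcgcGCGTGgctgaggaaagaa
In CA9 the core is read on the other strand, as CACGT, and begins 18 bases before the start. ANKRD37 holds CACGTG, which reads as ACGTG on both strands, and a further ACGTG, so 3 matches fall 162 to 143 bases before the start. ADM holds 1 GCGTG, 101 bases before the start.

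Per kilobase of exon (GENCODE 29, basic set), the order in RPMI plus B27 was VEGFA 117 ± 77.1, HIF1A 91.8 ± 31.3, HIF3A 19.9 ± 9.03, EGLN1 17.0 ± 2.47, EGLN3 15.2 ± 6.65, ADM 8.27 ± 1.60 and EPAS1 3.85 ± 1.03 CPM per kilobase (SD, n = 3). NDUFA4L2, CA9 and ANKRD37 followed at 0.989, 0.535 and 0.0438. VEGFA and HIF1A lay within their spread of each other, and so did HIF3A, EGLN1 and EGLN3. In DMEM plus fatty acids HIF1A stood at 100.5 ± 9.71 and VEGFA at 94.9 ± 30.4 CPM per kilobase, again within their spread. EGLN3, at 4.90 ± 2.19, was then below ADM at 8.79 ± 3.27 in mean.

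Of 11 receptors and relatives of VEGFA and ADM, 10 were tested. Among them 1 passed without the block, beside 1.36% of all tested genes, and 2 with it, beside 4.78%, all higher in DMEM plus fatty acids. CALCRL, the receptor that binds adrenomedullin when paired with a RAMP protein, rose from 2.00, 2.81 and 1.83 CPM in RPMI plus B27 to 6.20, 7.52 and 7.23 CPM in DMEM plus fatty acids. All 3 libraries of DMEM plus fatty acids lay above the others, and the log2 fold change was 1.66 ± 0.26 (edgeR adjusted p 0.0402, and 0.0236 with the replicate block). Leaving out any 1 of the 6 libraries ended the call, at an adjusted p of 0.0734 to 0.132. RAMP1, a partner that directs CALCRL towards the related peptide CGRP, had 12.9 ± 4.10 and 6.22 ± 1.98 CPM (SD, n = 3 each) and did not overlap, but did not pass (log2 fold change -1.05 ± 0.32, edgeR adjusted p 0.165, and -0.76 without RPMI plus B27 replicate 1). RAMP2, the adrenomedullin partner, had 1.58 ± 0.343 and 1.55 ± 0.613 CPM, and RAMP3 had 0 counts in every library.

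KDR, the main signalling receptor for VEGFA, had 27.5, 143 and 239 CPM in RPMI plus B27 and 115, 400 and 463 CPM in DMEM plus fatty acids. Replicate 1 was lowest in both media, and the ranges overlapped. KDR was higher in 3 of 3 pairs and passed with the replicate block (log2 fold change 1.49 ± 0.21, edgeR adjusted p 0.0245) but not without it (1.26 ± 0.76, adjusted p 0.434). FLT1, a receptor that also acts as a decoy for VEGFA, had 26.98, 9.49 and 4.85 CPM in RPMI plus B27 and 5.81, 3.75 and 3.68 CPM in DMEM plus fatty acids, with a log2 fold change of -1.65 ± 0.59 (edgeR adjusted p 0.213), and of -0.70 without RPMI plus B27 replicate 1. The co-receptors NRP1 and NRP2 and the ligands VEGFB, VEGFC and PGF did not pass, with log2 fold changes of -0.19, -0.65, 0.21, 0.09 and 0.31. KDR and FLT1 are also on the endothelial list, of which PECAM1, CDH5, VWF and ERG were near 0 and EMCN fell, and the part of endothelial cells was not tested.

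**Figure D4:**
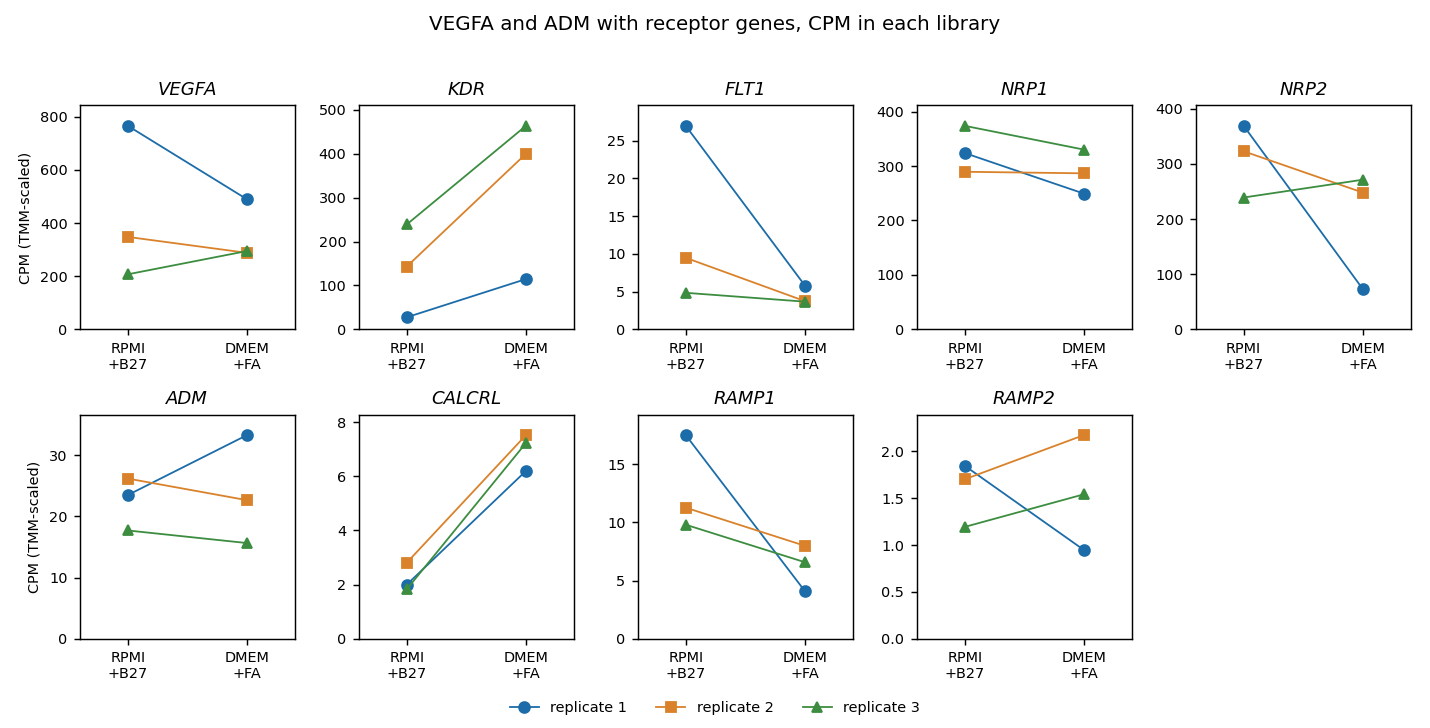
CPM of VEGFA and ADM and of their receptor and co-receptor genes in each library (vertical axis, TMM-scaled, from 0), with lines joining libraries of the same replicate number. CALCRL and KDR climb along all 3 lines, and FLT1 of RPMI plus B27 replicate 1 (26.98 CPM) stands above the other 5 libraries.

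The other carbonic anhydrases had no shared direction. CA8, a family member without catalytic activity, had 12.2, 16.7 and 21.1 CPM in RPMI plus B27 and 23.03, 30.4 and 42.4 CPM in DMEM plus fatty acids and rose with the replicate block (log2 fold change 0.93 ± 0.12, edgeR adjusted p 0.0208, and 0.154 without it). CA2 and CA13 had positive log2 fold changes of 0.92 ± 0.32 and 0.94 ± 0.47, and CA3, CA11 and CA14 negative ones of -0.98, -0.34 and -0.49, and none of these 5 passed in either fit (edgeR). Of 10 relatives, 6 were tested, and 1 of the 6 passed with the block, beside 4.78% of all tested genes. CA12, a cell surface enzyme like CA9, was under the filter, with 37, 13 and 8 counts in RPMI plus B27 and 2, 3 and 4 in DMEM plus fatty acids, which did not overlap.

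Of 17 other regulators of HIF, 16 were tested and 0 passed the edgeR test without the block (4 at an unadjusted p under 0.05, beside 17.7% of all tested genes, and 0 by the DESeq2 Wald test). Their median log2 fold change was 0.08, with 0.18 under total count scaling and -0.00059 without RPMI plus B27 replicate 1. With the block 1 passed, or 6.25% beside 4.78% of all tested genes. This was SIAH2, a ubiquitin ligase that acts on the EGLN enzymes, which fell from 60.0 ± 14.7 to 38.4 ± 4.89 CPM (log2 fold change -0.62 ± 0.11, edgeR adjusted p 0.0387). That call was lost with library scaling by total counts (adjusted p 0.0641). Under that scaling OS9, described as a partner of HIF1A and EGLN proteins, passed instead, upward (0.58 ± 0.11, adjusted p 0.0380). ARNT had a log2 fold change of 0.15 ± 0.11 (SE). VHL, at -0.11 ± 0.13, and HIF1AN, the asparagine hydroxylase FIH, at -0.07 ± 0.12, turned to 0.01 and 0.04 with total count scaling. P4HTM, LIMD1, SIAH1 and CREBBP had -0.41, -0.51, 0.40 and 0.30 and did not pass.

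Of 34 further non-glycolytic HIF targets, 33 were tested, and 4 passed without the block, all of them lower in DMEM plus fatty acids. That is 12.1%, beside 1.36% of all tested genes (1.07% lower). With the block 15 passed, all lower, or 45.5% beside 4.78% of all tested genes (3.42% lower). This list, like the other gene lists, was chosen with earlier results of these data known. The median log2 fold change of the 33 was -0.77, and -0.57 without RPMI plus B27 replicate 1. Fitted levels were lower for 30 of the 33 and higher for 3. The largest rise was that of HMOX1, from 1.08 ± 0.37 to 4.41 ± 2.74 CPM (SD, n = 3 each), without overlap. HMOX1 passed in neither fit (log2 fold change 2.02 ± 0.50, edgeR adjusted p 0.106, and 0.0552 with the block). The targets called in both fits were EDN1 (endothelin 1), PLOD1 and P4HA2 (collagen hydroxylases) and BNIP3 (a mitophagy receptor). EDN1 fell from 30.4, 14.2 and 12.2 CPM to 1.29, 1.74 and 0.978 CPM (log2 fold change -3.82 ± 0.44, edgeR adjusted p 0.0252), and it alone of the 4 kept its call without RPMI plus B27 replicate 1. Among those added by the block were P4HA1, ZNF395, BNIP3L, TMEM45A, ERO1A, INSIG2, KDM3A, RIMKLA, FAM162A and RORA, with blocked log2 fold changes from -1.52 for P4HA1 to -0.53 for BNIP3L. EDN1 and the collagen hydroxylases can also be made by cells other than cardiomyocytes, and stromal and smooth muscle markers were lower in the same direction. So were the 5 tested genes of the epicardial list, mostly keratins by level, and 4 of the 5 tested endothelial markers, all but KDR. The part of those cells was not tested.

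The 20 glycolytic HIF targets, listed for comparison, had a median of -1.32, and of -0.84 without RPMI plus B27 replicate 1. With the block 11 passed, beside 4.78% of all tested genes, and 2 without it (LDHA and PFKFB3), beside 1.36%, all lower. The 11 were LDHA, PFKFB3, SLC2A1, SLC2A3, HK2, SLC16A3, PGK1, TPI1, ENO1, ENO2 and ALDOC, while PGAM1 had an adjusted p of 0.0532. EGLN3, with a blocked log2 fold change of -1.66, lay within the range of these 11, from -2.25 for LDHA to -0.77 for TPI1. EGLN1, at -0.73, lay just outside it, but that range holds called genes only. Of the glycolytic targets not called with the block, PFKFB4 had -1.26, GAPDH -0.73, PFKL -0.70, PGAM1 -0.56 and HK1 0.15. These groups were not tested against each other. HIF1A, HIF3A, VEGFA and ADM had log2 fold changes between -0.19 and 0.19 with the block, and between -0.30 and 0.13 without it.

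**Figure D5:**
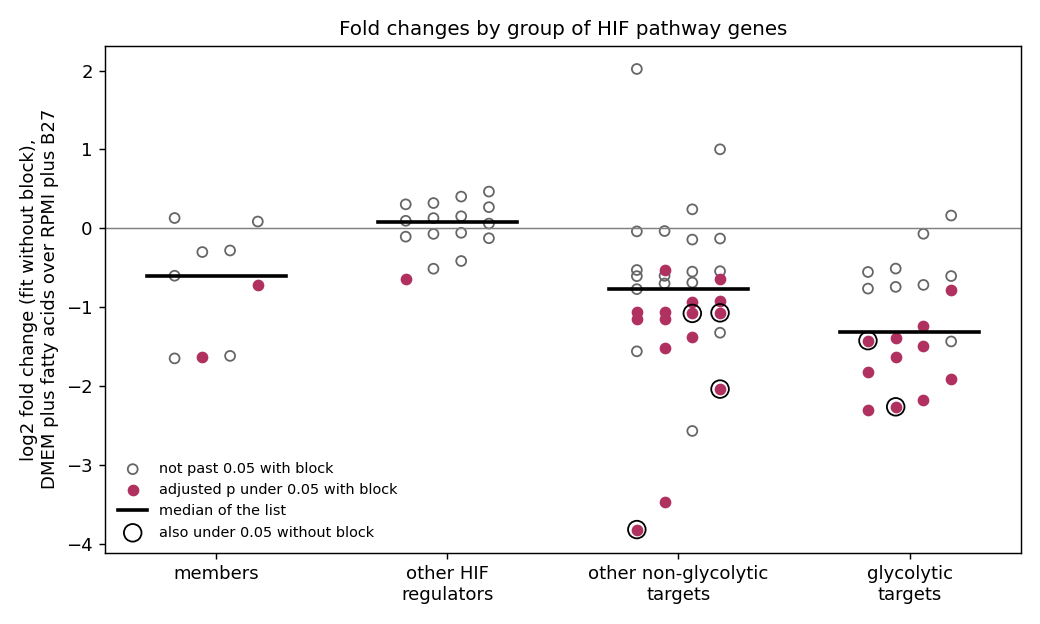
Log2 fold changes (vertical axis, fit without the block) of the members, the other regulators, the other non-glycolytic targets and the glycolytic targets, 1 point per tested gene, with list medians as black lines. Filled points passed with the replicate block and ringed points also without it, and the medians are -0.60, 0.08, -0.77 and -1.32.

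Genes most like the called members were sought by the root mean square difference of centred log2 CPM over the 6 libraries. For EGLN1 these were BEND3P3 (0.0740) and TLCD4 (0.0816), a transmembrane protein gene whose log2 fold change was -0.63 ± 0.20. EGLN3 was closest to CSRP3 (0.202), a muscle LIM protein gene, and to NGFR (0.224), the low-affinity neurotrophin receptor gene. CSRP3 went from 599 ± 220 to 238 ± 113 CPM and NGFR from 56.1 ± 33.7 to 17.9 ± 8.33 CPM (SD, n = 3 each). TLCD4, CSRP3 and NGFR passed with the replicate block (edgeR adjusted p 0.0255, 0.0142 and 0.00823) and not without it, and BEND3P3 passed in neither.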

How the data were processed

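RNA was sequenced from 6 cultures, 3 per medium, grouped by the sample titles. The authors deposited raw, unnormalized counts of reads for each gene symbol; the submitters' processing notes name STAR, HTSeq and the build hg38, and versions, annotation and strand setting are not given in the sources used here. Summary rows that name no gene, 12.8% to 15.6% of each file, were left out. Genes were filtered with filterByExpr (minimum count 10, minimum total 15), which left 16107, scaled by TMM and tested with the quasi-likelihood test of edgeR 4.0.16 in R 4.3.3 over all 6 libraries (threshold 0.05, Benjamini-Hochberg over all tested genes). Each standard error was derived from the fold change and its F value. P-values measure the spread between these cultures of 1 line.

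Deviations from the medium's mean correlated at 0.31, 0.43 and 0.37 between libraries with the same number and at -0.24 to -0.14 between others. Such deviations cancel within a medium, so positive values for the same number make the others negative on average. The negative values are therefore no separate evidence of pairing. Given the positive values, the replicate number was also fitted as a block, which leaves 2 residual degrees of freedom against 4. The labels do not say what the numbers share. No 2 libraries agreed within sampling noise. Alternatives were DESeq2 1.42.0, other scalings and filters and leaving out libraries. Blocked fits with another scaling or without 1 pair were added after the data were seen. The scripts were tested on simulated counts. Core letters were searched as stated beside the sequences.

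Members and gene lists were chosen with earlier results of these data known. Named were all members, their partners, every listed gene called in either fit, up to 6 genes of smallest p per list and the 2 genes most like each called member, together with HIF1A-AS3, RAB4B, LRP2BP and UFSP2, which were named after values were seen. One listed gene is not reported here. CA12, under the filter, was named after its values were seen, as were HMOX1 and the named endothelial and epicardial markers. Promoters are from RefSeq (GRCh38.p14), and exons from GENCODE 29.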

Additional observations from a re-analysis of the deposited data

How the results depend on the processing

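The members' calls changed with the replicate block, the test and the gene filter. Without the block, 0 members were called under other scalings, with at least 10 counts in every library and when any 1 library was left out, against 1 with no gene filter and 2 with DESeq2. With the replicate block 2 were called, also with total gene counts (2) and with edgeR RLE size factors (2), and 2, 1 and 2 without replicate 1, 2 or 3. Over all genes, 219 calls became 1212 with DESeq2, 539 with no filter, 119 with at least 10 counts in every library and 3 to 131 when 1 library was left out. The replicate block gave 770, with total gene counts 869, with RLE 802, and 1898, 413 and 913 without replicate 1, 2 or 3. Of these calls, 172 of 219 were lower, and 128 of 202 with total gene counts; with the block 551 of 770, and 438 of 869 with total gene counts, a scaling that moved the median of all genes from 0.01 to 0.12.

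For the regulators the block gave 1 call, with total gene counts 1, with RLE 1, and 1, 0 and 1 without replicate 1, 2 or 3. The 4 non-glycolytic target calls became 18 with DESeq2, 9 with no filter and 0 to 3 when 1 library was left out. With the block they were 15, with total gene counts 11, with RLE 15, and 23, 9 and 22 without replicate 1, 2 or 3. Of these calls, 1 was upward with DESeq2 and 1 with no filter. With the block, 1 was upward with total gene counts, 2 without replicate 1 and 1 without replicate 2. The 2 glycolytic calls became 17 with DESeq2, 10 with no filter, 1 with at least 10 counts in every library and 0 to 2 when 1 library was left out, and with the block 11, with total gene counts 10, with RLE 12, and 17, 9 and 12 without replicate 1, 2 or 3. The members' median of -0.60 became -0.31 with at least 10 counts in every library, a filter that dropped CA9 and NDUFA4L2 from the set. It was -0.75 to -0.13 when 1 library was left out. With the block and without replicate 1 it was -0.27, in a fit that did not hold NDUFA4L2. With 1 library left out the share differences ran from -3.86 to -0.53 points for EPAS1, -17.1 to -8.65 for EGLN3 and -0.932 to -0.0237 for NDUFA4L2.

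Signs turned as follows, and the cause was not tested. With 1 library left out, the log2 fold changes ran from -0.13 to 0.32 for HIF1A, -0.52 to 0.14 for HIF3A, -0.64 to 0.36 for VEGFA, -0.23 to 0.32 for ADM, -2.28 to 0.16 for NDUFA4L2, -0.0619 to 0.40 for VEGFC, -0.27 to 1.07 for PGF and -0.33 to 0.23 for RAMP2. The turned values of HIF1A, HIF3A, VEGFA and NDUFA4L2 were those without RPMI plus B27 replicate 1. With the replicate block and without replicate 1 they were HIF1A -0.090, HIF3A 0.11, VEGFA 0.12, ADM -0.20, VEGFC -0.17, RAMP2 0.36 and VHL 0.027, and VEGFC was -0.14 without replicate 2. Total gene counts gave RAMP2 0.096, VHL 0.0070 and HIF1AN 0.037, with the block 0.054, 0.0044 and 0.042, and RAMP2 was 0.0012 with no filter. Of 1135 gene fits, 864 kept direction and call. Depth limits ANKRD37, CA9 and NDUFA4L2.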

Other observations

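HIF1A-AS3, a long non-coding RNA gene whose RefSeq span (chr14:61715558-61751097) overlaps that of HIF1A, was looked at after its values were seen. It had 103, 40 and 34 counts in RPMI plus B27 replicates 1 to 3 and 10, 3 and 0 in DMEM plus fatty acids, which is 3.88, 1.70 and 1.27 against 0.431, 0.1003 and 0 CPM. The media did not overlap. The edgeR log2 fold change was -3.79 ± 0.96 (adjusted p 0.108), and with the replicate block -3.95 ± 0.61 (adjusted p 0.0270, with 0.000652 to 0.302 over 16 alternatives). HIF1A from the same region had a log2 fold change of 0.13. GENCODE names the minus strand gene with the span of HIF1A-AS3 HIF1A-AS2. In that annotation 0% of its exonic bases overlap exons of another gene on either strand. There the overlap with HIF1A is one of spans and not of exons. The annotation used for counting is not given. Without a stated strand setting, reads from between the exons of HIF1A cannot be told apart from reads of HIF1A-AS3.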
